A study of Mus musculus with 12 samples.

Results

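Ly6c1, Ly6c2, Ly6a and Ly6e encode small surface proteins of the mouse Ly6 family. These 4 genes, of 52632 in the deposited table, were picked by symbol after results from the same libraries were known. Their values are therefore given as a description, with no test. Expression was measured by total RNA sequencing of CD4 T cells sorted from mouse kidneys, in 12 libraries with 3 in each of 4 groups. KO IRI cells came from CD4 Keap1 KO mice on a C57BL6/J background, 24 h after 30 min of clamping of both renal pedicles (ischemia-reperfusion injury, IRI). KO control cells came from other CD4 Keap1 KO mice that served as controls, WT IRI cells from WT C57BL6/J mice after the same injury, and WT control cells from WT C57BL6/J controls. Keap1 encodes the adaptor that keeps the transcription factor NRF2 at low levels, and the comparison of genotypes asks what its loss does in CD4 T cells.

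The labels limit the groups in several ways. WT mice were purchased and KO mice were bred in house, so the effect of genotype and that of origin cannot be told apart. How Keap1 was deleted, which promoter drove the deletion, the age of the mice, whether controls had sham surgery and whether libraries of a group came from separate animals are not stated, so p-values measure only the spread between these libraries. The NRF2 target Nqo1 had 3.38 to 7.75 FPKM (fragments corrected for transcript length and library total) in the KO libraries and at most 0.543 FPKM in the WT libraries. Keap1 itself had 4.59 to 7.77 FPKM in KO and 6.03 to 9.87 FPKM in WT libraries, which overlapped, and the deleted part of the gene is not given. Summed FPKM per library ran from 739969 to 2089551, with 17.7% to 63.1% of it in the 3 most abundant genes, and 16059 to 20000 genes had at least 1 FPKM. KO control 1 (17.7%), WT IRI 3 (21.6%) and WT control 3 (24.8%) had the lowest shares in the 3 most abundant genes. In that they stood apart from the other libraries of their groups. They were not the libraries with most weight in every result. Without KO control 2, 1961 genes passed the test described below in KO control against WT control, against 5 with all 12 libraries. The labels state 60000000 reads for each sample, but no counts are given, so the reads behind each value are unknown.

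Ly6 proteins are small, cysteine-rich proteins held on the outer membrane by a glycosylphosphatidylinositol (GPI) anchor, and many mouse members lie in a cluster on chromosome 15. Ly6C, the product of Ly6c1 and Ly6c2, is used as a surface marker of inflammatory monocytes and of subsets of effector and memory T cells, and Ly6c1 is also expressed by endothelium. Ly6a encodes Sca-1, a marker of haematopoietic stem cells that activated T cells also carry, and Ly6a and Ly6e are inducible by interferons. On GRCm38, Ly6c1 (ENSMUSG00000079018) spans chr15:75044018-75048830 on the minus strand, Ly6c2 (ENSMUSG00000022584) chr15:75108158-75111970 on the minus strand, Ly6a (ENSMUSG00000075602) chr15:74994877-74998031 on the minus strand, and Ly6e (ENSMUSG00000022587) chr15:74955051-74959905 on the plus strand.

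Ly6c1 and Ly6c2 are near copies, which bears on every value of this pair. Their coding sequences, each of 393 bases, were identical at 384 of 393 positions (97.7%). Ly6c1 and Ly6a were identical at 83.7% of aligned coding bases, Ly6c2 and Ly6a at 83.5%, and Ly6e matched the others at 58.4% to 59.9%. The first 150 coding bases of both genes are shown because 6 of the differing positions, in capitals, fall there.
Ly6c1: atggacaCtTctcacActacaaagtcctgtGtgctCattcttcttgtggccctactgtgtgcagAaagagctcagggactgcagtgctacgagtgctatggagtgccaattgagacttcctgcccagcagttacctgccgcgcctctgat
Ly6c2: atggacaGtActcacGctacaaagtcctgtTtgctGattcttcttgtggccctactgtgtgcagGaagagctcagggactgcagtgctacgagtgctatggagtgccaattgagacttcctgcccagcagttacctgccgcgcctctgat
After the last of these 6 positions the shown stretches are the same, longer than a read of 36 bases. Of all 36-base stretches of the Ly6c1 transcript used, 43.3% occurred in Ly6c2, and 51.2% occurred in another gene of any kind. For Ly6c2 these shares were 44.5% and 48.4%. For Ly6a 17.9% of the stretches were shared, and for Ly6e 0.445%. How the authors' counting divided shared reads is not stated, so the split between Ly6c1 and Ly6c2 is uncertain, while the Ly6e value rests almost wholly on its own sequence.

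The upstream regions of this pair, both lower after IRI, were less alike than their coding sequences. Windows of 250 bases before a transcript start, from RefSeq on GRCm38.p6 and read on the minus strand, were available for 2 starts of Ly6c1 and 2 of Ly6c2. The first window of each, chr15:75048838-75049087 for Ly6c1 and chr15:75111972-75112221 for Ly6c2, was identical at 164 of 216 aligned bases (75.9%). Capitals mark the letters TATAAA.
Ly6c1: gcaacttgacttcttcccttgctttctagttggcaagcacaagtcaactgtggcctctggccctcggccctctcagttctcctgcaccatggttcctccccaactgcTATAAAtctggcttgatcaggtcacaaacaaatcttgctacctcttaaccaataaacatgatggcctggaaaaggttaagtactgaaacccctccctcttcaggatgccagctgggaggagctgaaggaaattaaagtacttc
Ly6c2: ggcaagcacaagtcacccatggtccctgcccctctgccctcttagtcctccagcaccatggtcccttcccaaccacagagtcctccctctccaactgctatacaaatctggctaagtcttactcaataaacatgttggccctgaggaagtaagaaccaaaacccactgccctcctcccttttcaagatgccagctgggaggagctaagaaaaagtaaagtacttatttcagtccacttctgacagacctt
Both strands of all 4 windows were searched for 4 motifs. The core of the interferon-stimulated response element (GAAA, any 2 bases and GAAA), the gamma-activated site (TTCNNNGAA) and the core of the antioxidant response element bound by NRF2 (TGACNNNGC) had no match in any of them. Among 32851 promoters of the same length these motifs occurred in 2.98%, 7.02% and 10.2%. TATAAA occurred in the first window of Ly6c1 and in 12.4% of the 32851 promoters. A match is a string of letters and not a binding site, and its absence says only that these letters are not in the window.

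Ly6c2 had the largest fold between IRI and control of the 4 genes. It had 3.80, 2.29 and 2.36 FPKM in the KO IRI libraries 1 to 3, against 27.4, 17.6 and 24.8 FPKM in the KO control libraries. It had 1.57, 1.92 and 2.61 FPKM in the WT IRI libraries, against 25.2, 32.9 and 60.5 FPKM in the WT control libraries. Every IRI library of either genotype was below every control library, and WT control 3 was the highest of the 12. The means were 2.81 ± 0.854 FPKM in KO IRI, 23.3 ± 5.08 in KO control, 2.03 ± 0.53 in WT IRI and 39.5 ± 18.5 in WT control (SD, n = 3 each). Ordered by mean, WT control stood above KO control with overlapping libraries, then came KO IRI, and then WT IRI, again with overlap.

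As a ratio of means, Ly6c2 was 8.27-fold lower in KO IRI than in KO control and 19.4-fold lower in WT IRI than in WT control. As a difference of log2(FPKM + 1), a scale that shrinks changes at low levels, it was -2.67 ± 0.31 in KO and -3.66 ± 0.31 in WT (SE from the fit to all 12 libraries). These were the 148th and the 35th lowest of the 19288 genes tested, those that averaged 1 FPKM or more. Without the 3 libraries that stood apart the differences were -2.54 in KO and -3.44 in WT. The genotype by IRI interaction, the KO difference minus the WT difference, was 0.99 ± 0.44 (SE). It ran from 0.64, without WT control 3, to 1.26 with 1 library left out.

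Ly6c1 followed the same direction with a smaller difference. It had 7.58, 8.70 and 7.37 FPKM in the KO IRI libraries, against 20.8, 11.3 and 29.2 FPKM in the KO control libraries. It had 4.36, 4.60 and 9.88 FPKM in the WT IRI libraries, against 10.8, 13.8 and 13.3 FPKM in the WT control libraries. The groups did not overlap in either genotype, although WT IRI 3 lay just under the lowest WT control library. The means were 7.88 ± 0.718 FPKM in KO IRI, 20.4 ± 8.96 in KO control, 6.28 ± 3.12 in WT IRI and 12.6 ± 1.58 in WT control (SD, n = 3 each). KO control stood highest and overlapped WT control, and KO IRI and WT IRI also overlapped below them. Ly6c1 was 2.59-fold lower in KO IRI than in KO control and 2.01-fold lower in WT IRI than in WT control, with log2 differences of -1.18 ± 0.34 and -0.98 ± 0.34 (SE). Its interaction of -0.20 ± 0.48 (SE) changed sign with single libraries, to 0.13 without WT IRI 3 and 0.09 without KO control 3, and was -0.55 without KO control 2.

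Ly6a separated by genotype after IRI, but not in controls, and by injury within each genotype. It had 76.3, 74.3 and 78.1 FPKM in the KO IRI libraries, against 124.9, 78.4 and 135.8 FPKM in the KO control libraries. It had 30.8, 28.6 and 31.6 FPKM in the WT IRI libraries, against 41.7, 47.4 and 96.6 FPKM in the WT control libraries. The IRI libraries of each genotype lay close together, and KO control 2 was the lowest of its group and barely above the highest KO IRI library. The means were 76.2 ± 1.91 FPKM in KO IRI, 113.0 ± 30.5 in KO control, 30.4 ± 1.55 in WT IRI and 61.9 ± 30.2 in WT control (SD, n = 3 each). In order of mean, KO control came first, then KO IRI, then WT control, which overlapped both KO groups through WT control 3, and WT IRI was lowest with no overlap. The log2 difference between IRI and control was -0.52 ± 0.30 in KO and -0.90 ± 0.30 in WT (SE). In WT it was -0.54 without WT control 3 and -0.57 without the 3 libraries that stood apart.

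Ly6e was the most abundant of the 4 genes, with a mean of 432 FPKM over the 12 libraries. It had 596.6, 460.6 and 400.9 FPKM in the KO IRI libraries, against 640.7, 492.9 and 669.0 FPKM in the KO control libraries. It had 270.7, 241.2 and 176.7 FPKM in the WT IRI libraries, against 401.1, 414.9 and 418.1 FPKM in the WT control libraries. The KO groups overlapped, and the 3 WT IRI libraries were the lowest of the 12. The means were 486 ± 100.3 FPKM in KO IRI, 601 ± 94.5 in KO control, 229.5 ± 48.1 in WT IRI and 411 ± 9.06 in WT control (SD, n = 3 each). In order of mean, KO control overlapped KO IRI and KO IRI overlapped WT control, while KO control lay above WT control, and WT IRI stood below them all. The log2 difference between IRI and control was -0.31 ± 0.23 in KO and -0.86 ± 0.23 in WT (SE). The KO value was -0.47 without KO IRI 1 and -0.18 without KO IRI 3. A bulk value cannot tell fewer cells that carry a transcript from less of it per cell.

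**Figure D1:**
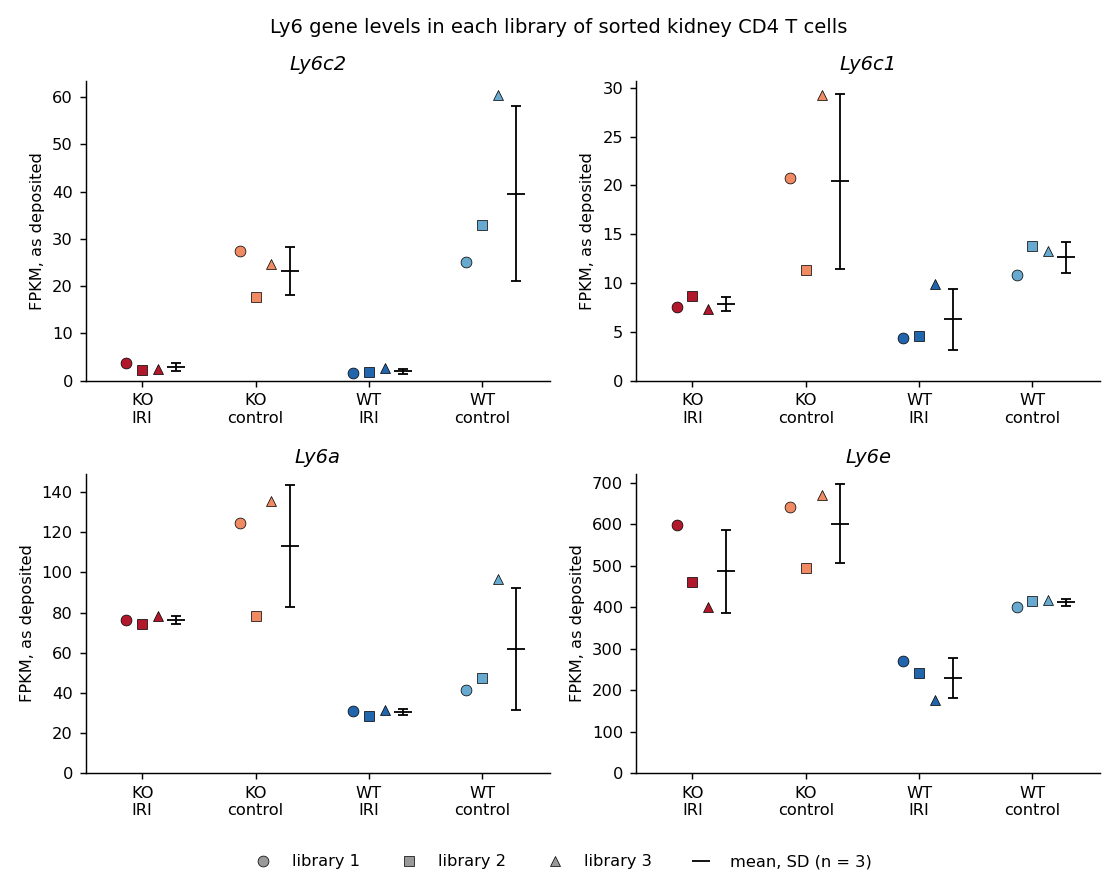
FPKM as deposited of Ly6c2, Ly6c1, Ly6a and Ly6e in each of the 12 libraries, with 1 symbol per library and the mean ± SD of each group (n = 3). Ly6c2 had at most 3.80 FPKM in the IRI libraries and at least 17.6 FPKM in the controls, while the WT IRI libraries were the lowest for Ly6a (28.6 to 31.6) and Ly6e (176.7 to 270.7).

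Groups that did not overlap were counted against the background of all 19288 genes tested. Between KO IRI and KO control, 3 of the 4 genes (Ly6c1, Ly6c2 and Ly6a) were lower without overlap, where 9.15% of all genes were. Between WT IRI and WT control all 4 were lower without overlap, where 14.4% of all genes were. After rescaling, which divides each library by its median ratio to the geometric mean over 16018 genes, Ly6c1 overlapped in WT through WT IRI 3. The genes were chosen with these contrasts known, so nothing is read from these counts.

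Between genotypes the size of a difference depended on the scaling, because the median of all genes tested was 0.26 higher in KO IRI than in WT IRI and 0.30 higher in KO control than in WT control (log2). After rescaling these medians were 0.02 and 0.01. Ly6a was 2.51-fold higher in KO IRI than in WT IRI by the ratio of means, with a log2 difference of 1.30 ± 0.30 (SE) as deposited and 1.01 after rescaling. Ly6e was 2.12-fold higher in KO IRI than in WT IRI, with log2 differences of 1.08 ± 0.23 (SE) and 0.78. Neither gene overlapped between KO IRI and WT IRI on either scale, and 24.9% of all genes were higher without overlap as deposited, 11.8% after rescaling.

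In the controls the differences between genotypes were smaller for Ly6a and Ly6e. The genotype by IRI interaction, however, was 0.38 ± 0.42 for Ly6a and 0.55 ± 0.33 for Ly6e (log2, SE). Ly6a was 0.92 ± 0.30 higher in KO control than in WT control (log2, SE) and 0.59 after rescaling, with overlapping libraries. Without WT control 3 it was 1.29, close to the 1.30 after IRI, and the interaction of Ly6a was 0.012. Without KO control 2 this interaction was 0.14. Ly6e was 0.53 ± 0.23 higher and 0.19 after rescaling, without overlap on either scale, as were 20.1% of all genes as deposited and 7.91% after rescaling. Under quantile normalization the Ly6e difference turned to -0.079. Ly6c2 went the other way in controls, at -0.67 ± 0.31 as deposited and -0.99 after rescaling, where its groups no longer overlapped, as was so for 7.53% of all genes in that direction. Without WT control 3 the difference was -0.32 as deposited, and without the 3 libraries that stood apart it was -0.44.

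For the Ly6c pair after IRI, the genotypes lay within the spread of the libraries. Ly6c2 was 0.32 ± 0.31 and Ly6c1 0.36 ± 0.34 higher in KO IRI than in WT IRI (log2, SE), both were 0.10 after rescaling, and both turned negative when libraries were scaled to a common sum. Leaving out 1 library gave 0.14 (without KO IRI 1) to 0.45 (without WT IRI 3) for Ly6c2, and 0.18 (without WT IRI 1) to 0.69 (without WT IRI 3) for Ly6c1. In controls Ly6c1 was 0.57 ± 0.34 higher in KO than in WT, with overlap, and 0.92 without KO control 2 or 0.27 without KO control 3. These comparisons share groups with each other: KO IRI, KO control, WT IRI and WT control each enter more than 1 of them.

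**Figure D2:**
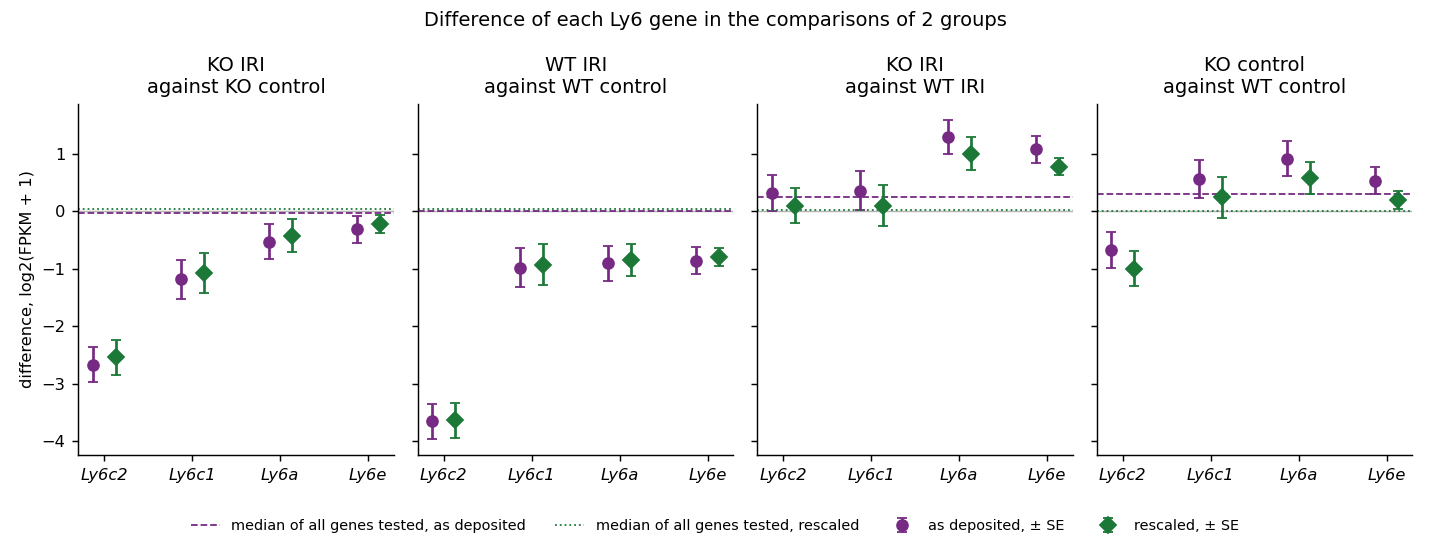
Differences on the log2(FPKM + 1) scale for Ly6c2, Ly6c1, Ly6a and Ly6e in the 4 comparisons of 2 groups, as deposited and rescaled, with SE as error bars and the median of all genes tested as dashed and dotted lines. Ly6c2 had the lowest value in both IRI comparisons (-2.67 in KO, -3.66 in WT), and Ly6a (1.30) and Ly6e (1.08) lay above the median of 0.26 between KO IRI and WT IRI.

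A ratio within a library does not depend on the scaling between libraries. Ly6c2 over Ly6c1 was 0.501, 0.263 and 0.320 in the KO IRI libraries, against 1.32, 1.56 and 0.849 in the KO control libraries. It was 0.360, 0.418 and 0.264 in the WT IRI libraries, against 2.33, 2.39 and 4.55 in the WT control libraries. Ly6c1 thus exceeded Ly6c2 in all 6 IRI libraries and in KO control 3, and Ly6c2 exceeded Ly6c1 in the other 5 controls. The KO control ratios all lay below the WT control ratios, and the IRI groups overlapped between genotypes. Shared sequence makes the size of this ratio uncertain. Ly6a over Ly6e was 0.161 ± 0.0335 in KO IRI, 0.186 ± 0.0234 in KO control, 0.137 ± 0.0362 in WT IRI and 0.150 ± 0.0706 in WT control (SD, n = 3 each), with overlap between KO IRI and KO control and between WT IRI and WT control.

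**Figure D3:**
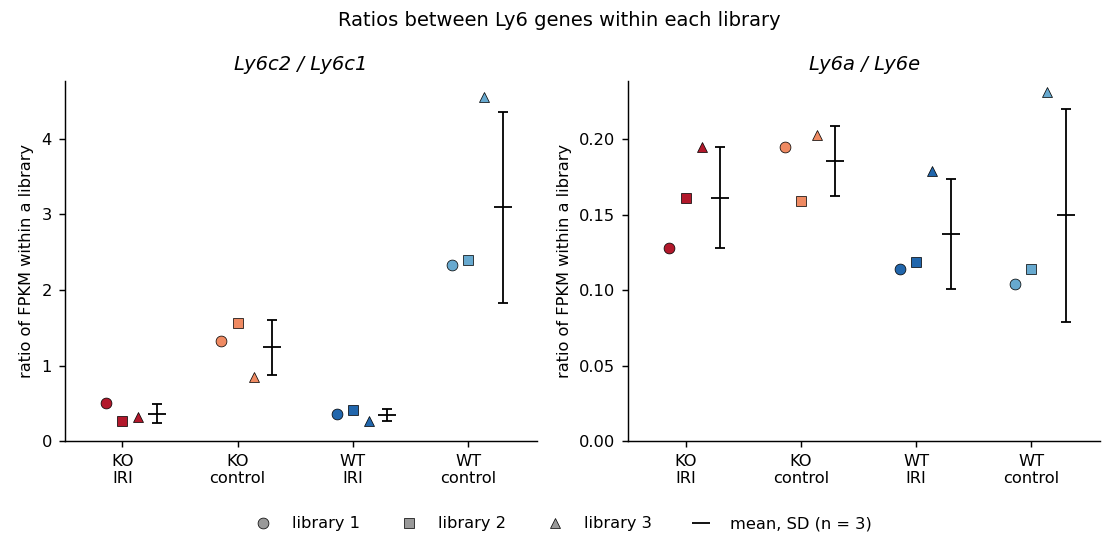
Ratio of Ly6c2 to Ly6c1 and of Ly6a to Ly6e within each library (FPKM over FPKM), with the mean ± SD of each group (n = 3). The Ly6c2 to Ly6c1 ratio was at most 0.501 in the IRI libraries and at least 0.849 in the controls, and the Ly6a to Ly6e ratio overlapped between groups.

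Levels across libraries were compared with those of 12238 other genes by Pearson's r of log2(FPKM + 1) over the 12 libraries, as a description in which all points share the library and its scaling. The nearest genes to Ly6c2 were Ctsw (0.978), which encodes the protease cathepsin W of cytotoxic lymphocytes, Nkg7 (0.978), a cytotoxic granule membrane protein, Zfp683 (0.972), the residency factor Hobit, Tbx21 (0.971), the Th1 factor T-bet, and Eya2 (0.969). Tbx21 averaged 7.06 ± 1.19 FPKM in KO IRI, 25.1 ± 3.78 in KO control, 6.09 ± 1.11 in WT IRI and 30.8 ± 0.756 in WT control (SD, n = 3 each). Zfp683 averaged 1.48 ± 0.524 FPKM in KO IRI, 34.2 ± 12.4 in KO control, 1.93 ± 0.989 in WT IRI and 51.3 ± 3.41 in WT control. Both were low after IRI in either genotype, as Ly6c2 was, but neither stayed among the 5 nearest after rescaling.

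The other 3 genes had different neighbours. Those of Ly6c1 were Dph6 (0.960), Atic (0.947), an enzyme of purine synthesis, Gbp4 (0.943) and Iigp1 (0.932), which encode interferon-inducible GTPases, and Dynll1 (0.938), a dynein light chain. Gbp4 averaged 36.5 ± 1.91 FPKM in KO IRI, 52.1 ± 9.31 in KO control, 30.9 ± 4.27 in WT IRI and 44.5 ± 6.41 in WT control (SD, n = 3 each). Those of Ly6a were Chmp5 (0.972), the glycolytic enzymes Pgk1 (0.972) and Aldoa (0.969), Psmc5 (0.971), a proteasome subunit, and Naca (0.967). Those of Ly6e were Twf2 (0.988) and Msn (0.984), which act on or bind actin, Capn1 (0.985), a calpain protease, Pacs1 (0.983) and Map3k4 (0.982). After rescaling, 2 of the 5 nearest genes were kept for Ly6c1 (Dph6 and Atic, so neither GTPase), 2 for Ly6c2 (Ctsw and Nkg7), 3 for Ly6a and 4 for Ly6e. Among the 4 genes themselves r was 0.876 for Ly6a with Ly6e, 0.776 for Ly6c1 with Ly6c2, 0.733 for Ly6c1 with Ly6a, and 0.521 to 0.628 for the other pairs.

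Of 30 other measured genes of the wider family (Ly6, Lypd, Lynx and Slurp genes, Cd59 and the urokinase receptor), 13 averaged at least 1 FPKM and were tested, and the highest mean among the other 17 was 0.892 FPKM. The tests were limma on log2(FPKM + 1) with Benjamini-Hochberg adjustment over all 19288 genes, at a threshold of 0.05. In IRI against control averaged over genotype (6 libraries each), 1 of the 13 rose and 3 fell, with a median of 0.23, where 3.01% of all genes rose, 6.03% fell and the median was -0.0035. Plaur, the urokinase receptor, rose by 2.17 ± 0.41 (SE, limma adjusted p = 0.0095). It averaged 43.9 ± 21.5 FPKM in KO IRI, 14.4 ± 4.86 in KO control, 38.4 ± 15.2 in WT IRI and 5.25 ± 3.74 in WT control (SD, n = 3 each). Some myeloid markers moved with it and others against it. Cd14, a monocyte receptor for bacterial lipopolysaccharide, had 47.0, 35.8 and 24.8 FPKM in KO IRI, 13.2, 8.88 and 11.6 in KO control, 33.4, 46.1 and 11.4 in WT IRI, and 11.9, 5.15 and 5.52 in WT control. Ccr2, of the same marker list, went the other way, with 19.3 to 47.9 FPKM in KO IRI against 64.7 to 76.7 in KO control. In WT it had 15.4 to 20.3 FPKM after IRI against 52.2 to 60.2 in controls. Adgre1 of that list and Mmp9 of the neutrophil list were also lower in every IRI library than in the controls of their genotype. The 12 neutrophil markers summed to 5.89 to 39.6 FPKM in KO IRI, 12.9 to 16.6 in KO control, 22.6 to 45.9 in WT IRI and 16.1 to 25.8 in WT control. The neutrophil sums, like those of the 15 monocyte and macrophage markers given with the other cell types, overlapped between IRI and control in both genotypes. The falling Mmp9 alone had 11.2 to 18.4 FPKM in WT control. S100a8 (7.37 to 13.8 FPKM against at most 0.938), S100a9 (3.34 to 17.8 against at most 0.445) and Mmp8 were higher in every WT IRI library than in WT control. So were Itgam, F13a1 and Chil3 of the monocyte list. In KO, S100a8 and S100a9 overlapped and Mmp8 did not. The part of these markers in the Plaur result was not tested.

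Lypd6b fell by 1.03 ± 0.18 (SE, limma adjusted p = 0.0069), from low levels of at most 4.51 ± 1.40 FPKM on average in KO control. Both Plaur and Lypd6b passed under all alternatives run for this comparison. Ly6g5b, at -1.47 ± 0.31 (limma adjusted p = 0.0162), passed in all but the fit without the 3 libraries that stood apart. Ly6d, a keratinocyte and early B cell surface protein, at -1.47 ± 0.38 (limma adjusted p = 0.0353), was lost in 11 alternatives, 9 of them leaving out 1 library. The B cell markers moved with it in KO, where their summed level was 10.2 to 13.6 FPKM in IRI and 36.6 to 128.0 in control. In WT the sums overlapped, at 11.2 to 26.2 FPKM in IRI and 24.6 to 74.2 in control. Ly6d overlapped there too, with 0.216 FPKM in WT control 3 against 0.143 to 0.395 in WT IRI. The part of the B cell markers in the result was not tested. Ly6f, Ly6g, Ly6i, Lynx1, Slurp1, Ly6g6c, Cd59a, Cd59b and Lypd5 did not pass, with means over a group of at most 4.67 FPKM.

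In single genotypes, where 0.327% of all genes rose and 0.539% fell in KO and 1.19% rose and 2.59% fell in WT, Lypd6b fell between KO IRI and KO control (-1.43 ± 0.26, SE, limma adjusted p = 0.0382), Plaur rose between WT IRI and WT control (2.87 ± 0.59, limma adjusted p = 0.0251) and Ly6g5b fell there (-1.88 ± 0.45, limma adjusted p = 0.0449). All 3 calls were lost without the 3 libraries that stood apart and, leaving out 1 library at a time, with 7 libraries for Lypd6b, 4 for Plaur and 10 for Ly6g5b. Between genotypes no other family gene passed in limma: at an unadjusted p under 0.05, 1 was lower in KO IRI than in WT IRI, and 2 were higher and 2 lower in KO control than in WT control. On chromosome 15 between 74714839 and 75599481 the annotation holds 46 genes, of which 12 besides the 4 were tested. Averaged over genotype, Ly6d fell after IRI, as 6.03% of all genes did. The pseudogene Gm29126, named after its values were seen, rose, as 3.01% of all genes did. In the 4 comparisons of 2 groups none of these 12 passed in limma, and at an unadjusted p under 0.05 the counts were 2 in KO IRI against KO control, 0 in WT IRI against WT control, 3 in KO IRI against WT IRI and 2 in KO control against WT control. Over all 19288 genes, in the same order, 2696, 3473, 4324 and 4022 had such a p in either direction. Neither these counts nor those of the family at an unadjusted p are read as a result.

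Interferons act through surface receptors, JAK kinases and STAT factors on a broad set of genes, to which Ly6a and Ly6e belong. Of 49 other interferon-stimulated genes tested, 32 fell and none rose in IRI against control averaged over genotype, where 6.03% of all genes fell. Their median was -0.78, against -0.0035 over all genes, and 34 fell after rescaling, where 7.33% of all genes fell. The summed CD4 T cell markers given below were lower after IRI too, averaging 2835 FPKM in KO IRI against 4337 in KO control. They averaged 1548 FPKM in WT IRI against 2939 in WT control, and their part in the fall of the list was not tested. Samd9l fell by 1.50 ± 0.14 (SE, limma adjusted p = 0.0002) and averaged 15.3 ± 2.57 FPKM in KO IRI, 38.3 ± 8.83 in KO control, 8.45 ± 0.88 in WT IRI and 30.8 ± 2.13 in WT control (SD, n = 3 each). Oas3, a sensor of double-stranded RNA, fell by 1.55 ± 0.17 (limma adjusted p = 0.0006). Xaf1, at -1.23 ± 0.15 (limma adjusted p = 0.0011), and Ifi27l2a, at -1.81 ± 0.23 (limma adjusted p = 0.0012), fell too. These 4 were among 12 of the 32 that passed under all alternatives run.

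The count itself moved with single libraries. It was 17 without KO IRI 2, 18 without KO control 3, 20 without WT IRI 2, 21 without WT control 2 and 15 without the 3 libraries that stood apart. In single genotypes 4 of the 49 fell between KO IRI and KO control (median -0.69, beside 0.539% of all genes) and 15 fell between WT IRI and WT control (median -0.89, beside 2.59% of all genes). Without the 3 libraries these counts were 0 and 1. Leaving out 1 library, the KO count was 0 without KO IRI 2, KO IRI 3, KO control 1 or KO control 3, 2 without WT IRI 1, WT IRI 2 or WT control 2, and 17 without KO control 2. In WT, 5 passed when WT IRI 1 was left out, 6 when WT IRI 2 or WT control 2 was, 4 when WT control 3 was and 9 when WT control 1 was. None passed in the interaction in limma, as 0.00518% of all genes did. At an unadjusted p under 0.05 there were 0, beside 646 of all 19288 genes.

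Between genotypes no interferon-stimulated gene passed in KO IRI against WT IRI or in KO control against WT control in limma, where 0.0518% and 0.0259% of all genes were called higher. At an unadjusted p under 0.05, 28 of the 49 were higher in KO IRI than in WT IRI as deposited and 11 after rescaling. Over all 19288 genes, 4324 and 3179 had such a p there in either direction. In controls 9 were higher in KO than in WT as deposited and 1 after rescaling, beside 4022 and 2129 of all genes in either direction. Averaged over condition, 15 were higher in KO than in WT as deposited and 0 after rescaling. After rescaling 11 had an unadjusted p under 0.05, beside 4125 of all genes in either direction. The count of 15 moved with every library left out, from 0 for 6 of them (KO IRI 1, KO control 1, KO control 3, WT IRI 3, WT control 1 and WT control 2) to 31 without KO control 2. Over all genes 11.9% were called higher in KO in that comparison as deposited and 0.378% after rescaling. Averaged over condition, the KO over WT difference of Ly6a was 1.11 ± 0.21 (SE) as deposited and 0.80 after rescaling. That of Ly6e was 0.81 ± 0.17 and 0.49. The interferon-stimulated list had medians of 0.50 as deposited and 0.20 after rescaling.

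Of 11 interferon genes listed, only Ifng, the type II interferon, averaged at least 1 FPKM. It averaged 27.3 ± 2.76 FPKM in KO IRI, 91.9 ± 50.9 in KO control, 30.5 ± 17.5 in WT IRI and 104.5 ± 23.3 in WT control (SD, n = 3 each). Averaged over genotype it fell by 1.72 ± 0.29 after IRI (SE, limma adjusted p = 0.0047), under all alternatives run. Of 21 tested genes for interferon receptors and signalling, 4 rose and 6 fell, with a median of -0.33, beside 3.01% and 6.03% of all genes. Socs3, a feedback inhibitor of cytokine receptors, rose by 2.50 ± 0.19 (SE, limma adjusted p = 0.0001) and Stat3 by 1.09 ± 0.18 (limma adjusted p = 0.0043). Irf8, a transcription factor of the interferon regulatory family, fell by 1.31 ± 0.19 (limma adjusted p = 0.0021). These 3 passed under all alternatives run, and the count of 10 was 4 without KO IRI 2 or without the 3 libraries, 5 without KO control 1 or KO control 3, and 6 without KO IRI 3, WT IRI 1, WT control 1 or WT control 2.

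Other GPI-anchored surface proteins of T cells also changed after IRI. Of 13 tested, 6 fell and 1 rose averaged over genotype, with a median of -0.62, where 6.03% of all genes fell and 3.01% rose. Art2b, an ADP-ribosyltransferase of the T cell surface, fell by 3.10 ± 0.25 (SE, limma adjusted p = 0.0001), to 2.48 ± 1.45 FPKM in KO IRI against 25.0 ± 3.55 in KO control, and 1.28 ± 0.698 in WT IRI against 20.8 ± 7.68 in WT control. Thy1, which is also in the CD4 T cell marker list, fell by 2.40 ± 0.27 (limma adjusted p = 0.0007). Cd52, a short glycoprotein of lymphocytes, fell by 2.20 ± 0.25 (limma adjusted p = 0.0008). Nt5e, which encodes the adenosine-producing enzyme CD73, rose by 0.94 ± 0.16 (limma adjusted p = 0.0056), with 42.7 ± 10.5 FPKM in KO IRI, 23.0 ± 4.65 in KO control, 23.6 ± 5.20 in WT IRI and 10.9 ± 0.635 in WT control. Its call was lost when libraries were scaled to a common sum. In the same comparison Ly6c2 had -3.16 ± 0.22, Ly6c1 -1.08 ± 0.24, Ly6a -0.71 ± 0.21 and Ly6e -0.59 ± 0.17 (SE).

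Art2b and Thy1 also fell between KO IRI and KO control, and Art2b, Thy1, Cd52 and Cd48 between WT IRI and WT control, where Nt5e rose (1.03 ± 0.23, SE, limma adjusted p = 0.0354). That count of 5 in WT was 3 without KO control 3, WT IRI 1, WT IRI 2, or any of the WT control libraries. The Thy1 call in KO was lost in 15 of 22 alternatives. Averaged over condition, Nt5e was 0.91 ± 0.16 higher in KO than in WT (SE, limma adjusted p = 0.0232) and 0.61 after rescaling, where it still passed, though the call was lost without KO IRI 1, KO control 1, KO control 3, WT control 1 or WT control 2. Of 27 tested genes for making and attaching GPI anchors, 3 fell after IRI averaged over genotype and none rose, with a median of -0.28. Of all genes 6.03% fell and 3.01% rose, and this count is not read as a result about the list. Pigu, a subunit of the GPI transamidase, fell by 0.78 ± 0.13 (limma adjusted p = 0.0049) and Mppe1, which trims the anchor, had -0.89 ± 0.15 (limma adjusted p = 0.0049), both past the threshold under all alternatives run. The third, Pigo at -0.69 ± 0.16 (limma adjusted p = 0.0233), was lost in 10 of them. The count was 5 without KO control 2.

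**Figure D4:**
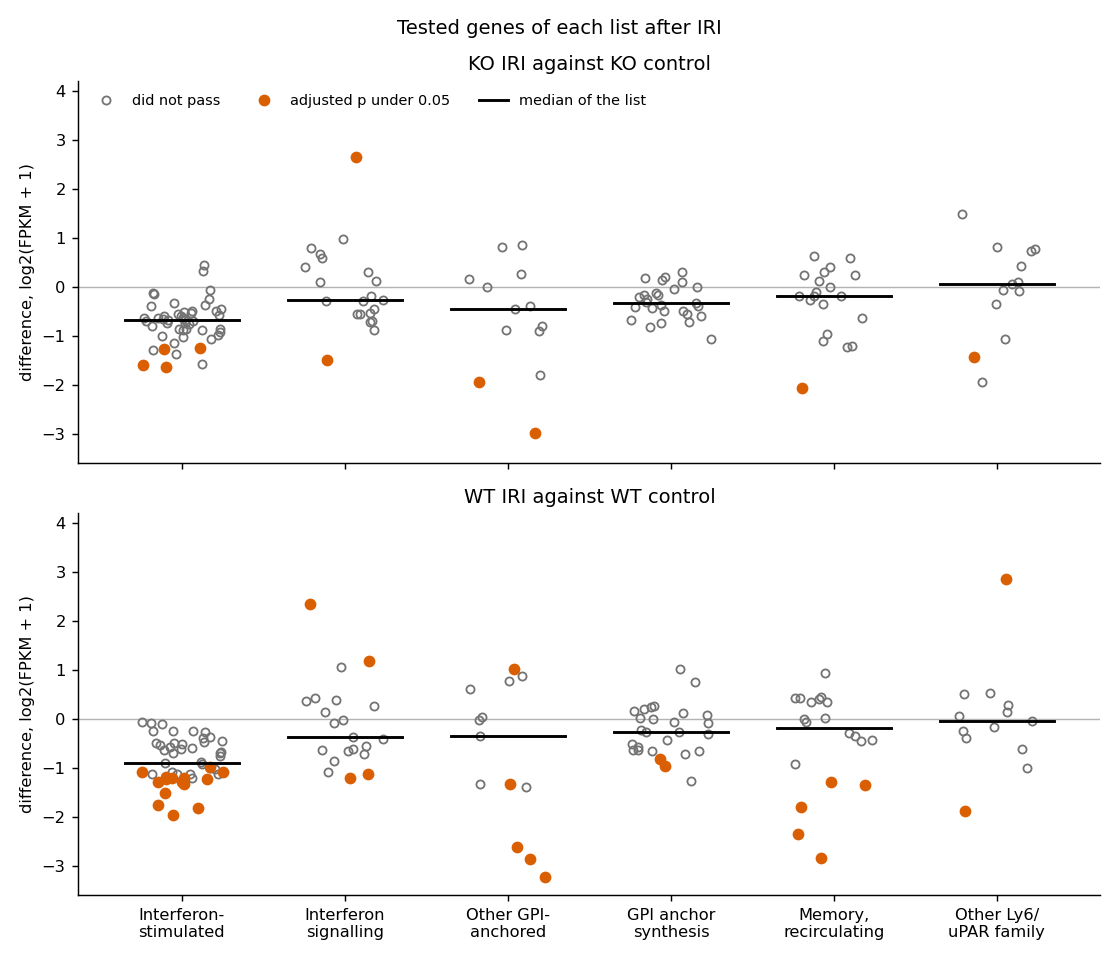
Differences on the log2(FPKM + 1) scale of the tested genes of each companion list in KO IRI against KO control and WT IRI against WT control, with filled points for a limma adjusted p under 0.05 and a bar at the list's median. The interferon-stimulated genes had medians of -0.69 in KO and -0.89 in WT, with 4 and 15 of 49 past the threshold.

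Since Ly6C marks subsets of memory T cells, 20 memory and recirculation genes were read beside it. Averaged over genotype, 5 fell after IRI and 1 rose, with a median of -0.17, where 6.03% of all genes fell, 3.01% rose and the median was -0.0035. Cxcr6, a chemokine receptor of tissue T cells, fell by 2.46 ± 0.19 (SE, limma adjusted p = 0.0001) and averaged 24.0 ± 3.98 FPKM in KO IRI, 103.9 ± 16.9 in KO control, 16.3 ± 6.09 in WT IRI and 117.3 ± 9.69 in WT control. Cxcr3, the receptor for interferon-induced chemokines, fell by 1.78 ± 0.18 (limma adjusted p = 0.0003). The memory marker Cd44, at -1.13 ± 0.15 (limma adjusted p = 0.0013), fell too. These 3 passed under all alternatives run. Averaged over condition 13 of the 20 were higher in KO than in WT as deposited, beside 11.9% of all genes. After rescaling 0 passed in limma, beside 0.378%. At an unadjusted p under 0.05 there were 12 after rescaling, beside 4125 of all 19288 genes in either direction. As deposited the count was 0 without KO IRI 1, KO control 1, KO control 3, WT control 1 or WT control 2.

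The markers of other cells moved with some of these values. The 19 CD4 T cell markers summed to 2485 to 3204 FPKM in KO IRI, 3350.2 to 4938 in KO control, 1441 to 1658 in WT IRI and 2753 to 3037 in WT control. They were thus lower after IRI and lower in WT IRI than in KO IRI, as Ly6a and Ly6e were. Per 100 FPKM of this sum, Ly6e had 17.1 ± 2.50 FPKM in KO IRI, 13.9 ± 0.669 in KO control, 14.7 ± 2.17 in WT IRI and 14.0 ± 0.479 in WT control (SD, n = 3 each). KO IRI and WT IRI overlapped on this scale. Ly6a had 2.71 ± 0.308 in KO IRI, 2.58 ± 0.212 in KO control, 1.97 ± 0.195 in WT IRI and 2.09 ± 0.947 in WT control, with KO IRI above WT IRI in all libraries and IRI overlapping control in both genotypes. Ly6c2 had 0.0981 ± 0.0182 in KO IRI, 0.536 ± 0.0400 in KO control, 0.133 ± 0.0440 in WT IRI and 1.33 ± 0.578 in WT control, with every IRI library below every control. Ly6c1 had 0.283 ± 0.0597 in KO IRI, 0.456 ± 0.128 in KO control, 0.415 ± 0.235 in WT IRI and 0.428 ± 0.0318 in WT control, and IRI overlapped control in both genotypes. The part of the summed markers in the Ly6 values and in the companion lists was not tested.

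The 12 markers of CD8 T and NK cells, which include Nkg7, summed to 39.8 to 72.9 FPKM in KO IRI, 139.7 to 219.6 in KO control, 42.0 to 53.1 in WT IRI and 126.2 to 159.2 in WT control. This sum separated IRI from control as Ly6c2 did. In controls most of it was Gzmb and Nkg7, the latter already named as nearest to Ly6c2. Gzma, Ncr1 and Eomes were also lower in every IRI library than in the controls of their genotype. Cd8a (1.33 to 3.43 against 3.30 to 4.46 FPKM), Klrk1 and Klrb1c overlapped in WT, and Prf1 in KO (1.56 to 3.46 against 2.68 to 5.56). The 10 plasma cell markers separated IRI from control only within each genotype. They summed to 114.2 to 300.1 FPKM in KO IRI against 473.0 to 2619 in KO control. In WT they summed to 76.4 to 102.4 FPKM in IRI and 142.5 to 211.9 in control, so KO IRI overlapped WT control. The members did not all go 1 way in KO. Ighm had 42.5 to 67.7 FPKM in KO IRI against 105.5 to 198.5 in KO control, but Prdm1 had 14.5 to 18.6 against 8.33 to 14.1. The part of either list in the Ly6c2 values was not tested. The 15 monocyte and macrophage markers summed to 131.8 to 316.9 FPKM in KO IRI, 242.0 to 454.4 in KO control, 154.0 to 201.7 in WT IRI and 154.2 to 249.4 in WT control, and overlapped between IRI and control in both genotypes. The 17 endothelial markers summed to 51.2 to 64.5 FPKM in KO IRI, 54.5 to 74.9 in KO control, 38.5 to 52.4 in WT IRI and 47.3 to 59.0 in WT control. Of these, 11 averaged under 1 FPKM, among them the defining markers Cdh5, Tie1 and Emcn, and most of the sum was Pecam1 (22.6 to 51.7 FPKM over the libraries) and Ehd3 (4.49 to 20.1). The 8 markers of plasmacytoid dendritic cells summed to 41.9 to 59.8 FPKM in KO IRI, 57.2 to 83.2 in KO control, 27.3 to 36.6 in WT IRI and 45.0 to 63.9 in WT control, and their sum includes the interferon-stimulated Bst2 and the signalling gene Irf8. It also includes Klk1, a kallikrein also made in kidney tubules, at 25.4 FPKM in KO IRI 2, 30.5 in KO IRI 3 and at most 10.8 in the other libraries. The 13 proximal tubule markers summed to 12.0 to 291.9 FPKM in KO IRI, 9.64 to 169.1 in KO control, 6.88 to 53.5 in WT IRI and 12.1 to 71.1 in WT control. The 9 loop and distal tubule markers summed to 9.90 to 284.7 FPKM in KO IRI, 3.92 to 42.2 in KO control, 11.9 to 62.1 in WT IRI and 13.3 to 86.0 in WT control, with KO IRI 3 the highest library for both lists. None of these 7 lists had a marker at 0 in all libraries of a group.

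**Figure D5:**
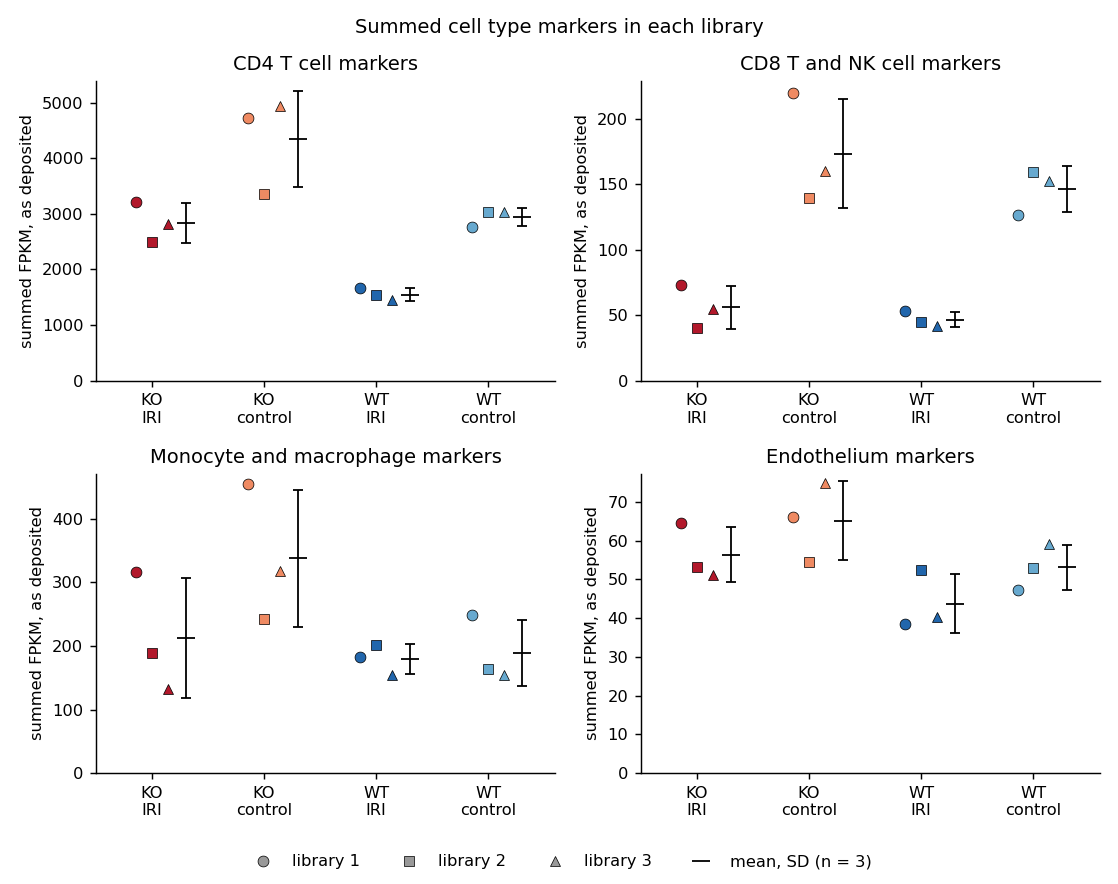
Summed FPKM of the markers of CD4 T cells, CD8 T and NK cells, monocytes and macrophages, and endothelium in each library, with the mean ± SD of each group (n = 3). The CD8 T and NK cell sum, in controls mostly Nkg7 and Gzmb, was at most 72.9 FPKM after IRI and at least 126.2 FPKM in controls. The monocyte and macrophage sums overlapped.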

How the data were processed

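RNA sequencing of sorted kidney CD4 T cells from 12 samples was used as 1 deposited table of FPKM for 52632 genes, made by the authors. Build GRCm38 and the tools Partek 7.0, Cufflinks 2.2.1, TopHat2 2.1.0 and bcl2fastq 2.17.1.14 are named, without their roles, per the submitters' processing notes. Per the labels' protocols, 1 ng of total RNA entered a stranded kit and paired reads of 36 bases were made. Strand setting, annotation release and handling of reads that match several genes are not given in the sources used here. The labels state 60000000 reads for each sample. No counts are given, so the depth behind each value is unknown and the counting noise of low values cannot be judged. An FPKM of 0 can be a failed estimate.

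A symbol was found for 52399 IDs. GENCODE mouse release 21 held 52485 of them and gave coordinates and coding sequences. Genes that averaged 1 FPKM or more (19288, of them 12065 protein-coding) entered limma 3.58.1 in R 4.3.3 (lmFit, eBayes with trend) on log2(FPKM + 1), all 12 libraries in 1 fit with 1 mean per group, Benjamini-Hochberg adjusted over all genes tested within each of 7 comparisons, threshold 0.05. All p-values are limma's and were computed here, with none deposited. The procedure was tested on simulated data. The members and gene lists were chosen with earlier results of these data known. Named were the 4 members, every tested family gene, up to 4 called genes of each list with the smallest adjusted p per comparison, and the 5 genes most like each member. Some genes that this rule names are not reported here. Predicted genes and small RNAs were left out of that likeness search. Sequence and figures used Python 3.11.15. Alternatives were other pseudocounts, filters and scalings, a replicate block, a fit of only the groups compared, and leaving out libraries.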

Additional observations from a re-analysis of the deposited data

How the results depend on the processing

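Of 548 recomputed log2 differences of the 4 Ly6 genes, 516 moved by less than the spread between libraries, 23 moved by more and 9 changed sign. With libraries scaled to a common sum, KO IRI against WT IRI became -0.25 for Ly6c1 and -0.17 for Ly6c2, and the interaction of Ly6a -0.048. Under quantile normalization Ly6e in KO control against WT control became -0.079. The interaction of Ly6c1 became 0.15 without the 3 libraries that stood apart, 0.09 without KO control 3 and 0.13 without WT IRI 3, and ran from -0.55 to 0.13 leaving out 1 library. Ly6c2 in KO against WT averaged over condition became 0.0049 without those 3 libraries and 0.0011 without WT control 3, and ran from -0.31 to 0.0011 leaving out 1. The cause was not tested.

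Counts of called genes over the whole table moved more. KO IRI against KO control had 167 calls, 78 with no filter, 398 with median ratios, 327 with quantiles, 54 with a common sum, 8 with only the groups compared, 40 without the 3 libraries and 44 to 848 leaving out 1. WT IRI against WT control had 729 calls, and in the same order 405, 1531, 1767, 109, 403, 224 and 255 to 917. KO IRI against WT IRI had 11 calls, 0 with a pseudocount of 5 or a common sum, 81 with a mean of at least 5 FPKM, 19 without the 3 libraries and 0 to 552 leaving out 1. KO control against WT control had 5 calls, 10 with a pseudocount of 0.1, 3 with 5, 31 without the 3 libraries and 4 to 1961 leaving out 1. The interaction had 1 call (Gm25744), 0 with a pseudocount of 5, 3 with no filter, 28 without the 3 libraries and 2 to 12 leaving out 1. IRI averaged over genotype had 1744 calls, 1081 with no filter, 2639 with median ratios, 2644 with quantiles, 1027 with a common sum, 1068 without the 3 libraries and 1044 to 2615 leaving out 1. KO averaged over condition had 2639 calls, and in the same order 211, 106, 54, 14, 54 and 34 to 5898.

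Same-numbered libraries did not deviate together (r of -0.037 to 0.202), so the numbers were not taken as pairs. A replicate block gave 3 calls in KO IRI against WT IRI, 4 in KO control against WT control, 1 in the interaction, 1547 for IRI and 1687 for KO averaged.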
